A study of Mus musculus with 8 samples.

Results

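A set of 10 genes of the fibroblast matrix was followed in fat of mice fed conjugated linoleic acid (CLA): the matrix glycoproteins Thbs1, Thbs2, Postn, Sparc, Fn1 and Fbn1, the proteoglycans Lum and Dcn, the collagen cross-linking enzyme Lox and the receptor Pdgfrb. A gene was counted as measured where a probe on the array named it and no other gene. That held for 8 of the 10, with 1 probe each, out of 16504 genes so measured; Thbs1 and Fbn1 were without such a probe and are not analysed here. The tissue was epididymal adipose tissue of polygenic obese mice, a line in which many genes together cause obesity. CLA, the collective name for linoleic acid isomers with conjugated double bonds, was the treatment, and linoleic acid (LA) the control. RNA was taken at day 14 and at day 5 of the trial. Each of the 8 arrays, 4 per day, set a pool of 4 or 5 CLA-fed mice directly against a pool of 4 or 5 LA-fed mice, so each value is a ratio and no level in either diet is known. On either day the CLA pool was labelled with Cy5 on arrays 1 and 2, and with Cy3 on arrays 3 and 4. The labels used here do not say whether arrays share pools, so the p-values cover the spread among these arrays and nothing wider.

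The matrix around fat cells is made mostly by fibroblasts and fibroblast-like precursors. Fibrillar collagens give it strength, small leucine-rich proteoglycans such as lumican and decorin bind the fibrils and control their width, and lysyl oxidase cross-links them. Fibronectin is laid down early and carries cell adhesion sites. Thrombospondins, periostin and SPARC are matricellular proteins, which change how cells meet the matrix more than they build it, and they are known to be made in quantity when tissue is remodelled. Transforming growth factor beta induces many of these genes.

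Ratios are given on the log2 scale as CLA over LA. No label states the numerator; this direction is likely, because CLA is named as the treatment, and the sign of Ucp1 at day 14 had also been seen when it was chosen. If LA was the numerator, every sign below is reversed. A log10 scale was inferred for the deposited values, which were converted with a factor of 3.32. On a log2 scale every ratio and standard error below would shrink by that factor, with signs and p-values as given. The values were also read as already turned for dye orientation. If arrays 3 and 4 are turned back, 473 probes without a single gene symbol average over 2 log2 units from 0 on both days; as deposited, all 473 have arrays 1 and 2 below arrays 3 and 4, and only 1 of all probes averages that far from 0 on both days. A spot that is bright in 1 dye whatever the diet gives the first pattern when ratios have been turned to 1 direction. Orientation matters for this gene set, because arrays of opposite orientation correlated at a median r of −0.36 across genes within a day, and genes are not independent replicates. Ratios recomputed with arrays 3 and 4 turned are therefore given beside the genes they reverse. Residual spread per array ran from 0.198 to 0.24 log2 units at day 14 and from 0.235 to 0.56 at day 5, where array 3 was the widest. Only ratios were deposited, so the tissue could not be checked against the level of its markers.

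Arrays of both days held large departures in transcripts of the organs next to this fat. On day 5 array 3 the sperm chromatin genes of the testis were far above 0, with log2 ratios of 6.78 for Prm1, 6.51 for Tnp1, 4.53 for Tnp2 and 3.60 for Prm2. On day 5 array 1 the epididymal genes were, from 1.95 for Defb1 to 2.83 for Lcn5. At day 14 single epididymal genes were far below 0. Lcn5 had −2.45 on array 2 and −5.03 on array 3, and Gpx5 had −3.47 on array 4. The median of the epididymis and testis genes on day 14 arrays 1 to 4 was −0.41, −0.48, −0.24 and 0.26. On day 5 array 3 the median of the 8 matrix genes was −1.22, against −0.06 for all genes. All genes also spread widest on that array, with an interquartile range of 0.78 log2 units. On day 5 array 1 the median of the 8 was 0.09, against 0.00 for all genes. The part of the testis and epididymis transcripts in the results was not tested on either day. A fit without day 5 arrays 1 and 3, chosen after the data were seen, is given beside the results below and keeps all day 14 arrays. It leaves 1 array of each dye orientation at day 5, and those are assumed to vary like the day 14 arrays.

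At day 14 the matrix genes separated. Thbs2, Postn and Fn1 were above 0 on all 4 arrays, with average ratios of 1.78-fold, 1.72-fold and 1.80-fold. Lum and Lox were above 1 log2 unit on arrays 1 and 2 but near or below 0 on arrays 3 and 4, except for Lum on array 3. Dcn, Sparc and Pdgfrb had averages below 0. Being above 0 on all 4 arrays held for 3 of the 8 genes, against 6.3% of all genes, and being below 0 on all 4 held for 0 of the 8, against 7.06%. At day 5 the average was below 0 for 6 of the 8, and Dcn and Pdgfrb were below 0 on all 4 arrays (2 of 8, against 3.24% of all genes), while 0 of the 8 were above 0 on all 4 (2.25% of all genes).

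**Figure D1:**
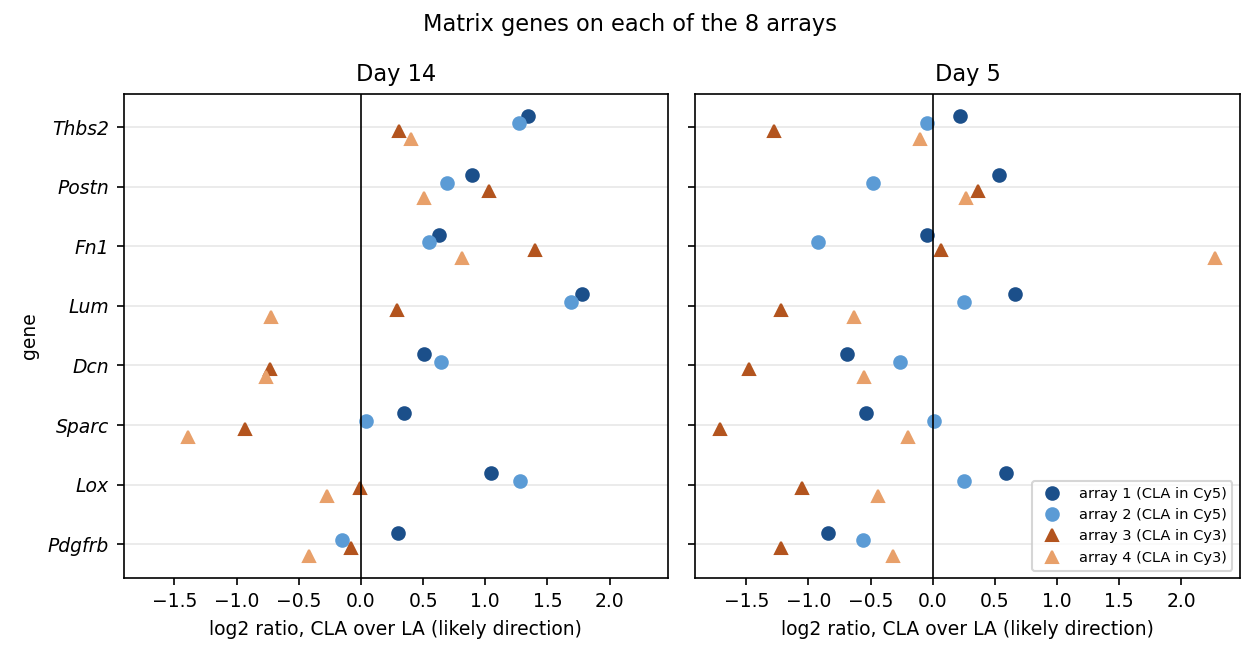
Log2 ratio of CLA over LA (horizontal axis) for the 8 measured matrix genes on each array, day 14 left and day 5 right; circles are arrays with CLA in Cy5 and triangles arrays with CLA in Cy3. At day 14 Thbs2, Postn and Fn1 lie right of 0 on all 4 arrays, and Thbs2, Lum, Dcn, Sparc and Lox have their circles right of their triangles.

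No member passed the test that uses all 8 arrays. In that limma fit, with a mean per day and 1 dye term, 0 of the 8 genes had a Benjamini-Hochberg adjusted p under 0.05 at day 14, and 0% of all 16504 genes did. The smallest adjusted p at day 14 was 0.251 among the 8 genes and 0.179 among all. At an unadjusted p under 0.05, 5 of the 8 were higher (Thbs2, Postn, Lum, Lox and Fn1) and 0 lower, against 4.24% and 5.53% of all genes. The median log2 ratio was 0.64 over the 8 genes and 0.00 over all genes.

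Fitting the 4 day 14 arrays alone gave the same ratios with smaller errors, since the wider day 5 arrays no longer entered the estimate of the spread. In that fit 3 of the 8 genes, Thbs2, Postn and Fn1, were called higher and 0 lower, where 0.533% and 1.04% of all genes were called. All 3 calls are sensitive to the arrays used. Without day 14 array 1, array 2 or array 3 none of the 8 was called in that fit, and the adjusted p of Thbs2 was then 0.0853, 0.107 and 0.0526. Without array 4 Thbs2, Postn, Fn1 and also Lum were called. Without the dye term none was. The day 5 arrays alone called 0 of the 8 and 0% of all genes. Fitted without day 5 arrays 1 and 3, the day 14 ratios were the same, and 2 of the 8 genes, Thbs2 and Postn, were called higher and 0 lower (adjusted p = 0.0375 and 0.0448), against 0.642% and 1.12% of all genes.

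**Figure D2:**
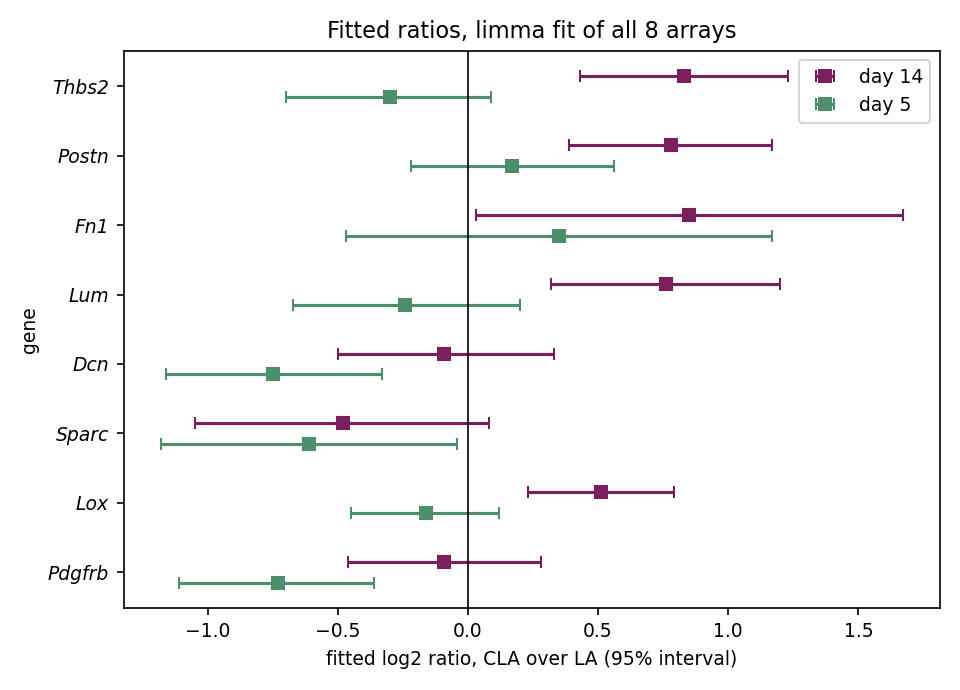
Fitted log2 ratio of CLA over LA for each gene at day 14 (upper square of each pair) and day 5 (lower square), from the limma fit of all 8 arrays; bars are 95% intervals. At day 14 the intervals of Thbs2, Postn, Fn1, Lum and Lox lie above 0, and at day 5 those of Dcn, Sparc and Pdgfrb lie below 0, before any adjustment for the number of genes.

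Thbs2 encodes thrombospondin 2, a matricellular protein known in mice to restrain vessel growth and to affect collagen fibril assembly. Its log2 ratios were 1.34, 1.27, 0.31 and 0.40 on day 14 arrays 1 to 4, and 0.22, −0.05, −1.28 and −0.10 on the day 5 arrays. The days did not overlap: the lowest day 14 array stood at 0.31 and the highest day 5 array at 0.22. Both day 14 arrays with CLA in Cy5 were higher than both with CLA in Cy3. The fitted ratio was 0.83 ± 0.17 (SE, n = 4 arrays per day) at day 14 and −0.30 ± 0.17 at day 5 (limma, adjusted p = 0.251 and 0.459). With the day 14 arrays alone it was 0.83 ± 0.07 and was called (adjusted p = 0.0225). Over all 16 alternatives for day 14 its adjusted p ran from 0.0144 to 0.971. Turning arrays 3 and 4 gave Thbs2 0.47 ± 0.34 at day 14 and 0.39 ± 0.34 at day 5, and left a day difference of 0.09 ± 0.48.

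Postn encodes periostin, a matricellular protein that binds collagen and is induced by transforming growth factor beta. Its log2 ratios were 0.89, 0.69, 1.03 and 0.51 on the day 14 arrays, against 0.53, −0.48, 0.36 and 0.27 on the day 5 arrays. Of the 8 genes it was the one whose day 14 ratio differed least between dye orientations, with means of 0.79 on arrays 1 and 2 and 0.77 on arrays 3 and 4. The days overlapped, since day 5 array 1 (0.53) was slightly higher than day 14 array 4 (0.51). The fitted ratio was 0.78 ± 0.17 at day 14 and 0.17 ± 0.17 at day 5 (limma, adjusted p = 0.257 and 0.661). It was called with the day 14 arrays alone, at 0.78 ± 0.11 (adjusted p = 0.047, and 0.0382 to 0.977 over the 16 alternatives). With arrays 3 and 4 turned, the equal values of the orientations cancelled and left 0.01 ± 0.23.

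Sparc encodes SPARC, or osteonectin, a collagen-binding matricellular protein of fibroblasts and fat. Its log2 ratios were 0.35, 0.04, −0.93 and −1.39 on the day 14 arrays and −0.54, 0.01, −1.71 and −0.20 on the day 5 arrays. At day 14 the arrays with CLA in Cy3 were far lower than those with CLA in Cy5, so the 4 arrays lay on both sides of 0. The fitted ratio was −0.48 ± 0.24 at day 14 and −0.61 ± 0.24 at day 5, neither called (limma, adjusted p = 0.59 and 0.353). Turning arrays 3 and 4 made the day 14 value 0.68 ± 0.23 (adjusted p = 0.092), the opposite sign.

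Promoter sequence is shown for the pair of matricellular genes called higher with the day 14 arrays alone, Thbs2 and Postn, and for Sparc, which was not. The RefSeq promoter table (mouse build GRCm38.p6) held 4 of the 10 genes, these 3 and Fbn1, which was not measured. Each sequence is the 250 bases before an annotated transcription start, 5′ to 3′ on the gene's strand: chr17:14694263-14694512 (minus strand) for Thbs2, chr3:54359017-54359266 and chr3:54360857-54361106 (plus strand) for the upstream and downstream starts of Postn, and chr11:55420081-55420330 (minus strand) for Sparc. Capitals mark matches on either strand to TATAAA (a core promoter motif), TGANTCA (AP-1) and CAGAC (the short SMAD motif), and matches of different motifs did not overlap.
Thbs2: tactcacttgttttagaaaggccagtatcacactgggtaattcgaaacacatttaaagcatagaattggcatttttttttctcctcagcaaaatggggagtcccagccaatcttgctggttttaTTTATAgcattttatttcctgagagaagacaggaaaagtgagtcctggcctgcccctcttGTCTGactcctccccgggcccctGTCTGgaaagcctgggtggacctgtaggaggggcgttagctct
Postn, upstream start: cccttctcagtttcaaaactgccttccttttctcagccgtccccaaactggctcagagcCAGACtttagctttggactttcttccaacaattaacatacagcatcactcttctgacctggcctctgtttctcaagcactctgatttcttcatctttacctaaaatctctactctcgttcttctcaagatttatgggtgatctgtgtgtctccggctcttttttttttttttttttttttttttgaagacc
Postn, downstream start: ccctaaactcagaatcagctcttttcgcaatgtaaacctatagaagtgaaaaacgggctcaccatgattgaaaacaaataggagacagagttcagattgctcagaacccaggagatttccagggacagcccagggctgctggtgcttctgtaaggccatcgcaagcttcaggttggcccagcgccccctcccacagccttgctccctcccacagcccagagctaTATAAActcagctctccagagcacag
Sparc: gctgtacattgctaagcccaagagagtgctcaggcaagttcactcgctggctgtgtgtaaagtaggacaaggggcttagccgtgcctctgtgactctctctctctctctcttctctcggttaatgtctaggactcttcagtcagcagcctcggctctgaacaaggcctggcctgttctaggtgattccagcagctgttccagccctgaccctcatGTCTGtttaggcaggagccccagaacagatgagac
The downstream start of Postn had 1 TATAAA match, beginning 26 bases before the start, and no CAGAC. Thbs2 had 2 CAGAC matches and 1 TATAAA match on the opposite strand, the upstream Postn start 1 CAGAC match and Sparc 1. None of the 4 windows held TGANTCA. Of 32851 promoter windows of that length in the table, 12.4% held TATAAA, 6.75% TGANTCA and 42.2% CAGAC, so a CAGAC match is common. A match is a run of letters and not a measured site.

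Fn1 encodes fibronectin, the adhesive glycoprotein on which other matrix proteins assemble. Its log2 ratios were 0.63, 0.55, 1.40 and 0.81 on the day 14 arrays, against −0.05, −0.92, 0.07 and 2.27 on the day 5 arrays. Day 5 array 4 was the highest value of any of the 8 genes on any array, while array 2 of that day was the lowest for Fn1. Here the arrays with CLA in Cy3 tended to be the higher ones, the reverse of most other members. The fitted ratio was 0.85 ± 0.35 at day 14 and 0.35 ± 0.35 at day 5 (limma, adjusted p = 0.499 and 0.671). With the day 14 arrays alone the error shrank to 0.11 and Fn1 was called (adjusted p = 0.0437, and up to 1 over the 16 alternatives). The day 5 value was −0.21 without array 4, and the day 14 value −0.26 ± 0.35 with arrays 3 and 4 turned.

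Lum and Dcn encode lumican and decorin, small leucine-rich proteoglycans that bind collagen fibrils. Lum had log2 ratios of 1.78, 1.69, 0.29 and −0.72 on the day 14 arrays and 0.66, 0.25, −1.22 and −0.63 on the day 5 arrays. Dcn had 0.51, 0.64, −0.73 and −0.76 on the day 14 arrays and −0.69, −0.26, −1.48 and −0.55 on the day 5 arrays. Both genes were higher on arrays 1 and 2 than on arrays 3 and 4 at day 14, and Lum was so at day 5 too. The fitted ratio of Lum was 0.76 ± 0.19 at day 14 and −0.24 ± 0.19 at day 5 (limma, adjusted p = 0.304 and 0.583). That of Dcn was −0.09 ± 0.18 at day 14 and −0.75 ± 0.18 at day 5 (adjusted p = 0.947 and 0.284). Neither was called on either day in this fit or with the arrays of 1 day alone, where Lum had 0.76 ± 0.17 at day 14 (adjusted p = 0.101). Turning arrays 3 and 4 gave Dcn 0.66 ± 0.23 at day 14.

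Lox encodes lysyl oxidase, which oxidises lysines of collagen and elastin so that they cross-link. Its log2 ratios were 1.05, 1.28, −0.01 and −0.27 on the day 14 arrays and 0.59, 0.25, −1.05 and −0.44 on the day 5 arrays. On both days the arrays with CLA in Cy5 lay above 0 and those with CLA in Cy3 below it. The fitted ratio was 0.51 ± 0.12 at day 14 and −0.16 ± 0.12 at day 5 (limma, adjusted p = 0.297 and 0.552). It was just short of the threshold with the day 14 arrays alone (adjusted p = 0.0567), and was called when all 8 arrays were weighted by quality (0.49 ± 0.09, adjusted p = 0.0308), a fit that also called Thbs2 and Postn but not Fn1. That made 3 of the 8 higher and 0 lower, against 1.32% and 2.22% of all genes. Postn was not called there without day 5 array 3 or without day 5 array 4, and without day 5 array 2 the weighted fit called 6 of the 8 and 2497 genes. The estimation of the weights stopped before it converged in the fits without day 5 array 1 and without day 14 array 1, though not in the other fits with weights.

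Pdgfrb encodes the receptor for platelet-derived growth factor B, found on pericytes and on mural precursors of fat cells. Its log2 ratios were 0.30, −0.15, −0.08 and −0.42 on the day 14 arrays and −0.84, −0.56, −1.22 and −0.32 on the day 5 arrays. At day 14 the arrays scattered around 0, and at day 5 all 4 were below it. The fitted ratio was −0.09 ± 0.16 at day 14 and −0.73 ± 0.16 at day 5, neither called (limma, adjusted p = 0.934 and 0.284). The day 5 value is 1.66-fold lower with CLA than with LA. Without day 5 arrays 1 and 3 the day 5 ratio was −0.44 ± 0.17 for Pdgfrb, −0.41 ± 0.19 for Dcn and −0.09 ± 0.23 for Sparc, none called, and the median of the 8 genes was −0.10. With all arrays Pdgfrb at day 5 ranked 72nd of the 16504 genes by p, in a fit that called 0 of the 8 members and 0% of all genes. The 3 members with an unadjusted p under 0.05 at day 5, all lower, were Pdgfrb, Dcn and Sparc, where 9.17% of all genes were lower and 4.19% higher. The median over the 8 genes at day 5 was −0.27, against 0.00 over all genes. After arrays 3 and 4 were turned, Pdgfrb had 0.16 ± 0.23 at day 14 and 0.03 ± 0.23 at day 5, and the other 7 genes also changed sign at day 5.

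**Figure D3:**
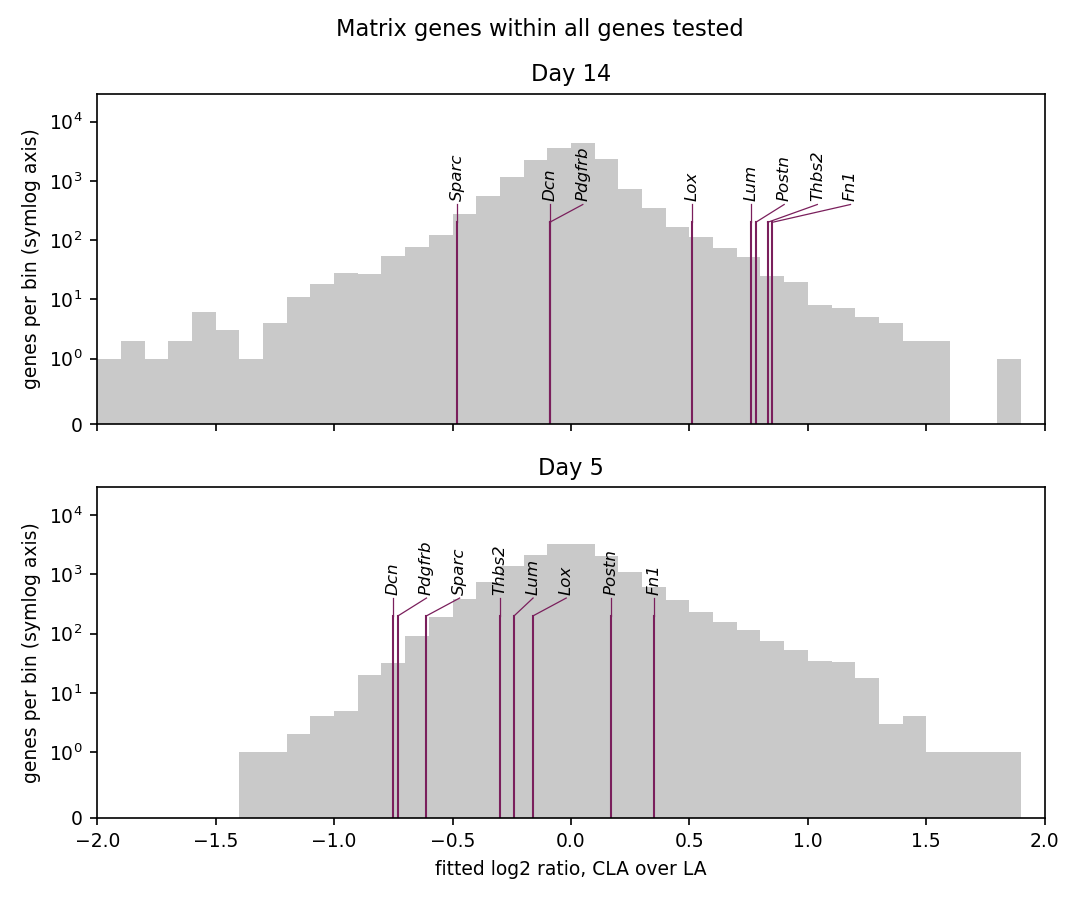
Number of genes per bin of 0.1 log2 units (grey bars, vertical axis linear below 1 and logarithmic above) by fitted log2 ratio of CLA over LA, with the 8 matrix genes marked, day 14 above day 5; 7 genes at day 14 and 1 at day 5 lie outside the range shown. Thbs2, Fn1, Postn, Lum and Lox sit in the upper tail at day 14, and Dcn, Pdgfrb and Sparc in the lower tail at day 5.

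Set against all genes, Thbs2 and Fn1 stood at the 99.6th percentile of fitted ratios at day 14, Postn at the 99.5th, Lum at the 99.4th and Lox at the 98.2nd. Dcn and Pdgfrb were at the 30.7th and 30.3rd and Sparc at the 2.44th. At day 5 Dcn was at the 0.297th percentile, Pdgfrb at the 0.333rd and Sparc at the 0.903rd, whereas Fn1 was at the 91.5th. The 90% of genes nearest the middle lay between −0.36 and 0.30 at day 14 and between −0.38 and 0.47 at day 5. These ranks may follow in part from the choice of members, which was made with earlier results of these data known.

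The difference between days was tested directly. All 8 genes had a higher ratio at day 14 than at day 5, from 0.13 ± 0.34 for Sparc to 1.13 ± 0.24 for Thbs2 (SE, limma fit of all arrays), where 50.1% of all genes had a difference above 0. The count called was 0 of 8, as for 0% of all genes, and the adjusted p was 0.892 for every member but Sparc (0.959). At an unadjusted p under 0.05 there were 6 of the 8, namely Thbs2, Lum, Lox, Pdgfrb, Dcn and Postn, all upward, against 2.81% of all genes upward and 1.44% downward. Lum differed by 1.00 ± 0.27, Lox by 0.67 ± 0.17, Dcn by 0.66 ± 0.25, Pdgfrb by 0.65 ± 0.23 and Postn by 0.61 ± 0.24. Thbs2 was the 1 gene of the 8 whose days did not overlap, against 0.533% of all genes with day 14 above day 5 and 0.303% with day 14 below it. An exact two-sided permutation test of 4 against 4 arrays gave p = 0.0286 for Thbs2, and p from 0.0571 to 0.857 for the other 7, unadjusted for the 8 tests made. That p is the smallest this design allows, and days that do not overlap always give it, so it adds nothing to the lack of overlap; the test also exchanges arrays of different dye orientation. Without day 5 arrays 1 and 3 the difference was 0.91 ± 0.21 for Thbs2, 0.89 ± 0.23 for Postn and 0.95 ± 0.34 for Lum, but 0.32 ± 0.23 for Dcn, 0.35 ± 0.21 for Pdgfrb and −0.39 ± 0.28 for Sparc, none called.

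The gain from day 5 to day 14 was also looked at within each dye orientation. It was above 0 in both orientations for 6 of the 8 genes, against 27.7% of all genes. On arrays 1 and 2 it ran from 0.46 for Sparc to 1.28 for Lum. On arrays 3 and 4 Thbs2 had 1.05, Lum 0.71, Lox 0.60, Pdgfrb 0.52, Postn 0.45 and Dcn 0.27, while Fn1 had −0.07 and Sparc −0.21. With arrays 3 and 4 turned the 8 differences stayed above 0 but were between 0.07 and 0.57, none with an unadjusted p under 0.05.

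**Figure D4:**
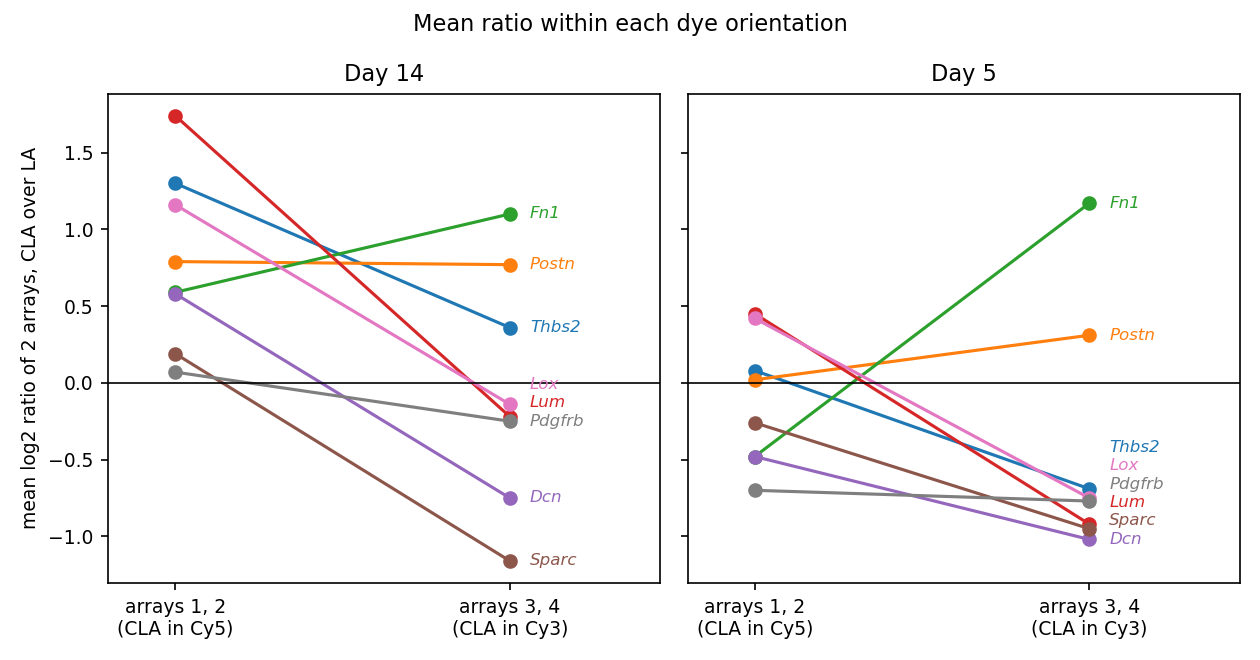
Mean log2 ratio of the pair of arrays with CLA in Cy5 (left points) and of the pair with CLA in Cy3 (right points) for each gene, day 14 left and day 5 right. Postn is level between orientations at day 14, Fn1 slopes upward, and Lum, Lox, Dcn, Sparc and Thbs2 slope downward.

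Most of these genes differed between dye orientations by more than their day 14 mean differed from 0. At day 14 both arrays 1 and 2 lay above both arrays 3 and 4 for 5 of the 8 genes (Thbs2, Lum, Dcn, Lox and Sparc), against 36.2% of all genes, and at day 5 for 3 of the 8, against 30.3%. On both days this held for 3 of the 8 (22.3% of all genes). The opposite order, arrays 1 and 2 below arrays 3 and 4, was seen in 36.3% of all genes at day 14 and 26.9% at day 5. The gap at day 14 was 1.96 log2 units for Lum, 1.35 for Sparc, 1.32 for Dcn, 1.30 for Lox and 0.95 for Thbs2, but 0.02 for Postn and 0.32 for Pdgfrb. The dye term, coded +1 for CLA in Cy5 and −1 for CLA in Cy3, was above 0 and past the threshold for 4 of the 8, against 18.4% of all genes: Lox (0.62 ± 0.09, limma adjusted p = 0.00244), Lum (0.83 ± 0.13, adjusted p = 0.00379), Dcn (0.47 ± 0.13, adjusted p = 0.0262) and Thbs2 (0.43 ± 0.12, adjusted p = 0.0292). The labels do not say whether arrays 1 and 2 hold other pools than arrays 3 and 4, so dye and pool cannot be told apart. The mean of the 4 arrays balances the orientations.

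Among themselves the 8 genes fell into profiles by root mean square difference over the 8 arrays, a description with no test. The closest pairs were Thbs2 and Lox (0.36 log2 units), Lum and Lox (0.37) and Dcn and Sparc (0.37), followed by Dcn and Pdgfrb (0.43). Fn1 was farthest from the rest, at 0.79 from Postn and over 1 from each of the others. Outside the set, the genes nearest to Lum were Apbb1ip (0.35), Dcstamp (0.39) and Rap2b (0.40), those nearest to Fn1 were Rtn4 (0.37), Ftl1 (0.40) and Hp (0.41), and those nearest to Thbs2 were Bmper (0.32), Fabp1 (0.34) and Pla1a (0.36). The nearest gene to Sparc was Ifngr1 (0.19), to Lox Eps8 (0.20), to Postn Kcnk13 (0.21), to Dcn Anxa11 (0.24) and to Pdgfrb Plac9a (0.24). The arrays share dyes and orientation, which enters every such profile.

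Related matrix genes had medians nearer 0 than the set at day 14. The set and the lists were chosen with earlier results of these data known, so this contrast may follow from the choice. Of 23 other measured matrix glycoproteins, 8 were above 0 and 15 below at day 14, with a median of −0.09 against 0.00 for all genes. With all arrays 0 of them passed the test. With the day 14 arrays alone 4 were called lower and 0 higher, against 1.04% and 0.533% of all genes. Without array 3 that fit called 68 genes and without array 4 it called 156. Without array 1 or without array 2 it called 1 gene in all. At most 1 of the calls in this and the following lists could then remain. The 4 glycoproteins called lower included Nid2, a basement membrane linker (−0.80 ± 0.32, SE of the fit of all arrays), and Efemp1, a fibulin (−0.72 ± 0.38). The others were Sparcl1, a relative of Sparc (−0.61 ± 0.19), and Vtn, vitronectin (−0.55 ± 0.23). Nid1, the sister of Nid2, had −0.58 ± 0.29 and was not called. Turned arrays reversed Nid2 (0.54), Efemp1 (0.68), Sparcl1 (0.65) and Nid1 (0.85), left Vtn below 0 (−0.10) and put the list's median at 0.01. The other thrombospondins measured, Thbs3 (0.16 ± 0.09) and Thbs4 (0.12 ± 0.13), were not called either, and turned they had −0.26 and −0.13.

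Proteoglycans other than Lum and Dcn were split, with 6 of 12 above 0 at day 14 and a median of 0.03. Prelp, a leucine-rich repeat proteoglycan, had −0.93 ± 0.33 and was the 1 of the 12 called, lower, with the day 14 arrays alone (adjusted p = 0.0251). Bgn, biglycan, the closest relative of decorin, had 0.67 ± 0.25, Epyc 0.42 ± 0.35 and Ogn −0.36 ± 0.20. Turned arrays reversed Prelp (0.19), Bgn (−0.29) and Ogn (0.91), but not Epyc (0.52), and 10 of the 12 were then above 0. Of the 15 enzymes and chaperones of collagen processing, 9 were above 0 at day 14, with a median of 0.08. Plod2, a lysyl hydroxylase, had 0.51 ± 0.10 and was the 1 called, higher, with the day 14 arrays alone (adjusted p = 0.047). The lysyl oxidase relative Loxl2 had 0.41 ± 0.11, Pcolce, an enhancer of procollagen cleavage, 0.50 ± 0.16, and its relative Pcolce2 −0.60 ± 0.43, none called. Plod2 (−0.23) and Loxl2 (−0.04) were reversed on turned arrays, where 4 of the 15 genes were above 0 and the median was −0.10; Pcolce (0.23) and Pcolce2 (−0.10) were not.

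Of 12 microfibril and elastic fibre genes 7 were above 0 at day 14 (median 0.09), and with the day 14 arrays alone 1 was called in each direction. Emilin1 had 0.64 ± 0.17 and was the higher one, and Ltbp3, which holds latent transforming growth factor beta, had −0.56 ± 0.20 and was the lower one. Mfap5 had 0.68 ± 0.25 and Fbln5 −0.44 ± 0.18, neither called. Emilin1 (−0.54), Ltbp3 (0.10) and Fbln5 (0.41) were reversed on turned arrays, where the median was −0.07; Mfap5 (0.71) was not. Of 8 fibrillar and type VI collagen genes 5 were above 0 at day 14 (median 0.23) and 0 at day 5 (median −0.19), none called with all arrays or with those of 1 day. Turning arrays 3 and 4 put 8 of 8 above 0 at day 14 (median 0.46) and 6 of 8 at day 5 (median 0.17). At day 14 that fit called 2 of the 8, where it called 2089 of all 16504 genes in either direction. Col3a1 had 0.67 ± 0.23, Col1a1 0.55 ± 0.22, Col1a2 0.55 ± 0.19 and Col5a2 0.40 ± 0.19 at day 14.

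Genes of transforming growth factor beta signalling lay near 0 at day 14, with a median of 0.01 over 11 genes, none called; Tgfb1 had 0.23 ± 0.15, Tgfb2 0.20 ± 0.18, Tgfbr1 0.13 ± 0.09 and Tgfbr3 0.09 ± 0.13. On turned arrays the median was −0.10 and Tgfb1 (−0.58), Tgfbr1 (−0.46) and Tgfbr3 (−0.27) were below 0, while Tgfb2 had 0.29. Of 17 receptors for matrix proteins and genes of the PDGF family, 8 were above 0 (median −0.06). Ddr1, a collagen receptor, had −0.71 ± 0.20 and was the 1 called, lower, with the day 14 arrays alone. The fibronectin receptor subunit Itga5 had 0.45 ± 0.15, the collagen receptor subunit Itga1 −0.38 ± 0.19 and Pdgfc −0.35 ± 0.13, none called. Itga5 (−0.61), Itga1 (0.35) and Pdgfc (0.31) were reversed on turned arrays and Ddr1 had −0.03; the median was 0.18.

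**Figure D5:**
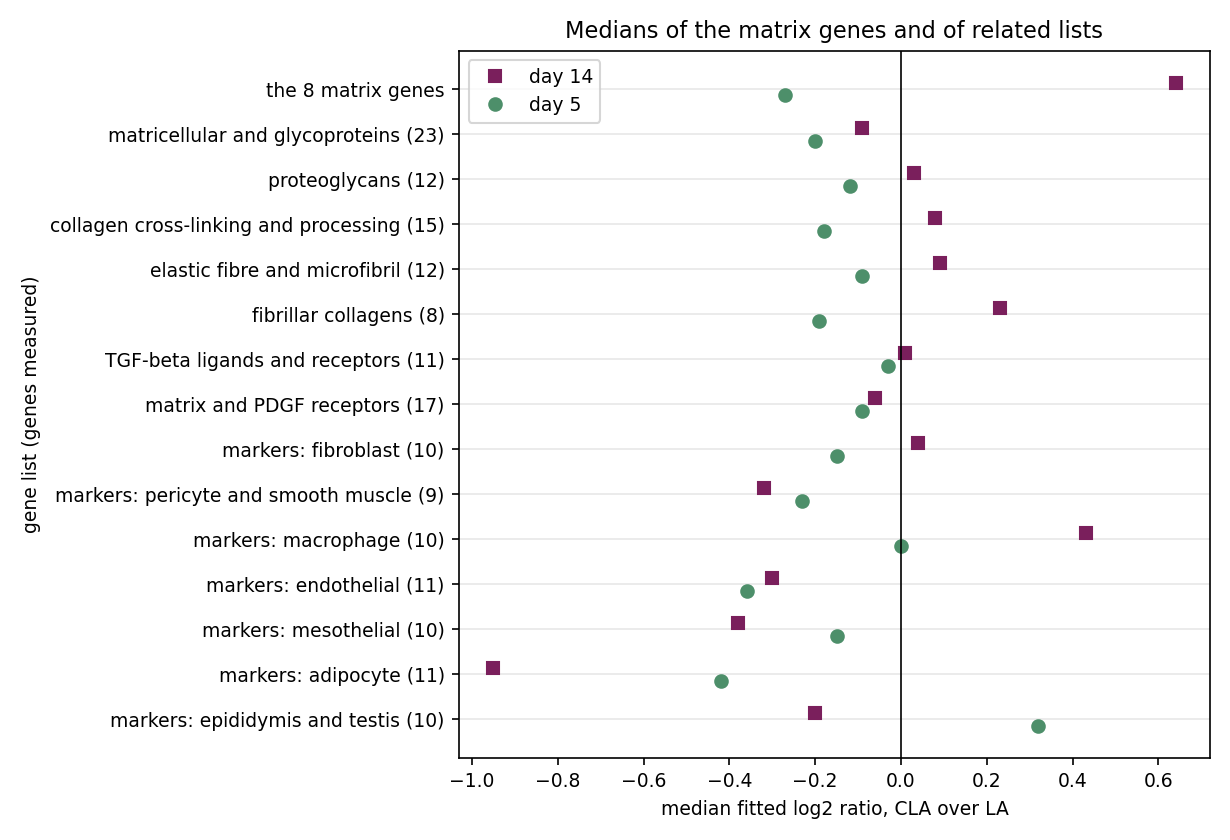
Median fitted log2 ratio of CLA over LA for the 8 measured matrix genes, related matrix lists and cell type marker lists, at day 14 (squares) and day 5 (circles); the number of genes measured stands in brackets. The 8 genes have the highest day 14 median (0.64), followed by macrophage markers (0.43) and collagens (0.23), and adipocyte markers the lowest (−0.95). Genes and lists were chosen with earlier results of these data known.

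Markers of the cells that fat holds moved beside these genes, and their part in the results was not tested. In whole tissue, fewer cells of a type and less RNA per cell cannot be told apart. Fibroblast markers, of which Col1a1, Col1a2, Col3a1 and Pdgfra also stand in the lists above, had 5 of 10 members above 0 at day 14 (median 0.04) and 1 of 10 at day 5 (median −0.15). At day 14 the fibroblast markers Cd34 (−0.43 ± 0.18) and Dpp4 (−0.42 ± 0.13) lay below 0. The collagens among them lay above it, as did Pi16 (0.30 ± 0.11) and Pdgfra (0.10 ± 0.16). Fap (−0.05 ± 0.16), Dpt (−0.04 ± 0.34) and Thy1 (−0.01 ± 0.16) were slightly below 0. Turned arrays reversed Cd34 (0.36), Dpp4 (0.43), Fap (0.19) and Pi16 (−0.66). Pericyte and smooth muscle markers had 3 of 9 above 0 on each day, with medians of −0.32 at day 14 and −0.23 at day 5. Mcam, with −1.10 ± 0.34, and Rgs5, with −0.51 ± 0.20, were below 0 on all 4 day 14 arrays. They were the pair called, lower, with those arrays alone. Des, with 0.44 ± 0.17, was above 0 on all 4 day 14 arrays. Tagln (0.20 ± 0.19) and Cspg4 (0.15 ± 0.10) also had ratios above 0 at day 14, and none of these 3 was called. On turned arrays Mcam had 0.26, Rgs5 −0.01 and Des −0.06, and the list's day 14 median was −0.01.

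Macrophage markers had 9 of 10 above 0 at day 14 (median 0.43) and 5 of 10 at day 5 (median 0.00). By array the macrophage median was 0.91, 0.60, 0.63 and 0.18 at day 14 and 0.42, 0.07, −0.29 and −0.07 at day 5, while that of the 8 matrix genes was 0.76, 0.67, 0.14 and −0.34 at day 14 and 0.09, −0.16, −1.22 and −0.26 at day 5. Both sets were higher on each day 14 array than on the same-numbered day 5 array, except the matrix genes on array 4. Adipocyte markers had 2 of 11 above 0 on each day, with medians of −0.95 at day 14 and −0.42 at day 5. By array the adipocyte median was −0.34, −0.53, −1.19 and −1.03 at day 14. At day 5 it was −1.36, 0.42, −1.66 and 0.90, so those arrays lay on both sides of 0. Endothelial markers had 1 of 11 above 0 on each day (medians −0.30 and −0.36), and mesothelial markers 0 of 10 at day 14 and 2 of 10 at day 5 (medians −0.38 and −0.15). Fitted on day 14 arrays only, 4 adipocyte, 3 endothelial and 1 mesothelial marker were called lower, and 0 macrophage and 0 fibroblast markers were called. Of all genes, 1.04% were called lower and 0.533% higher in that fit. The day 14 medians after turning arrays 3 and 4 were 0.48 for adipocyte, 0.05 for mesothelial, −0.27 for endothelial, 0.23 for macrophage and 0.27 for fibroblast markers, so the adipocyte and mesothelial medians changed sign. Transcripts of epididymis and testis had a median of −0.20 at day 14 and 0.32 at day 5, a summary over arrays that differ widely. At day 14 the largest departures were −5.03 for Lcn5 on array 3 and −3.47 for Gpx5 on array 4.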

How the data were processed

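RNA of CLA-fed and LA-fed mice was hybridised on 8 arrays of 2 channels. The authors deposited 1 value per probe and array, taken here as a log10 ratio from the values themselves; no label or header gives the log base, the numerator, the scanner, the background treatment or the normalization. Column medians of the deposited values lay between −0.0176 and 0.0109, so arrays were likely centred by the authors. No intensities were used, so signal over background is unknown and the number of arrays limits precision. The 8 value columns were all used. Promoters are from the RefSeq table.

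Of 22393 probes, 18218 carried 1 gene symbol, 16 several and 4159 none. Values were multiplied by 3.32 to give log2, and probes of a gene were averaged. The 16504 genes entered 1 limma model (version 3.58.1, R 4.3.3; lmFit and eBayes) holding a mean per day and 1 dye term. A call is an adjusted p under 0.05 (Benjamini-Hochberg). The fit was also run on simulated data, with planted effects larger than any fitted ratio of the members. That run does not show how the fit performs at the sizes reported here. Alternatives were the arrays of a day alone, no dye term, arrays 3 and 4 turned, centring, array weights, a log2 reading, 1 probe per gene, robust variance, each array left out, and array number as a block. The fit without day 5 arrays 1 and 3 was added after the data were seen.

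The members and lists were chosen with earlier results of these data known. Named list genes are the 4 with the largest day 14 ratio in size and any called one; Thbs3, Thbs4 and the markers of cell types and neighbouring organs named were chosen after their values were seen. Same-numbered arrays of the 2 days deviated together (r 0.36 to 0.64), which their shared dye orientation brings; with orientation removed r was −0.38 or 0.02.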

Additional observations from a re-analysis of the deposited data

Results flagged for a closer look

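Thbs2 was flagged because its ratio differed between days: 0.83 at day 14 and −0.30 at day 5, a difference of 1.13 ± 0.24 on the log2 scale. All 4 day 14 arrays lay above all 4 day 5 arrays (exact permutation test, unadjusted p = 0.0286, 1 of 8 genes tested; days that do not overlap always give this p). In limma's fit across all genes the adjusted p was 0.892, and 0.33 to 1 over the 16 alternatives. Without day 5 arrays 1 and 3 the difference was 0.91 ± 0.21 (adjusted p = 0.349). With arrays 3 and 4 turned the difference was 0.09 ± 0.48. No gene had an array far enough from the other 3 of its day to be flagged, in 16 groups examined.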

How the results depend on the processing

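With each array left out of the fit of all arrays, the members' median was between 0.54 and 0.70 at day 14, −0.48 and −0.13 at day 5, and 0.56 and 0.89 for day 14 minus day 5, and 0 members were called; 0 to 1 genes were called at day 14 (1 without day 5 array 2) and 0 otherwise. The day 14 arrays alone called 260 genes and 3 members, against 0 and 0 with all arrays; without 1 of them, 1 to 156 genes. Array weights called 584 genes and 3 members at day 14 (177 to 2497 genes without 1 array, with weights that had not converged without day 5 array 1 or day 14 array 1), and there Postn had −0.19 and Fn1 −0.08 at day 5. Without day 5 array 3 or array 4 the weighted fit no longer called Postn (adjusted p = 0.0538 and 0.0526). With arrays 3 and 4 turned, 2089 genes were called at day 14 and 2140 at day 5, with a member median of 0.31 at day 5; the day 5 values were then 0.39 for Thbs2, −0.14 for Postn, 0.69 for Lum, 0.27 for Dcn, 0.58 for Lox, −0.83 for Fn1, 0.34 for Sparc and 0.03 for Pdgfrb, and the day 14 values 0.66 for Dcn, −0.26 for Fn1, 0.68 for Sparc and 0.16 for Pdgfrb, all of the opposite sign. Without day 5 arrays 1 and 3, a choice made after the data were seen, 291 genes and 2 members were called at day 14 and 1 gene and 0 members for day 14 minus day 5; Postn then had −0.11 at day 5 and Sparc −0.39 for day 14 minus day 5. The cause of these shifts was not tested, beyond the smaller number of arrays in the fits named. Leaving 1 array out moved Postn at day 5 to between 0.00 and 0.40, Fn1 at day 5 to between −0.21 and 0.67, Pdgfrb at day 14 to between −0.20 and 0.01, and Sparc for day 14 minus day 5 to between −0.11 and 0.49. With array number as a replicate block the day difference was 1.13 ± 0.21 for Thbs2 (adjusted p = 0.932) and 0 genes were called, so the block changed no call. Background correction and a filter on dim probes were not run, because the values are ratios.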
